A study of Rattus norvegicus with 6 samples.

Results

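The mRNA levels of 8 transcription factors that maintain hepatocyte identity were measured in 6 liver libraries, of which 3 came from animals on a high-fat diet (the HFD group) and 3 from animals on that diet that were given the Huazhuo Tiaozhi granule, a herbal formula (the HTG group). The factors were Onecut1, Onecut2, Cebpa, Cebpb, Foxa1, Foxa2, Foxa3 and Prox1, and they were found by gene symbol as 8 of the 32930 rows of the deposited table, 1 row each. According to the series description, the intervention lasted 12 weeks and the HFD group received 0.5% sodium carboxymethyl cellulose. In the rat experiment of the paper, the granule was given only in the later part of a 12-week high-fat diet. It was given there in the same vehicle as the HFD group received. The paper does not say whether this schedule holds for the sequenced animals. The treatment label of the HTG libraries spells the agent "HCG", and the titles spell it "HTG". The labels call the animals rats, the sequencing methods of the paper name C57BL/6 J mice, and the table lists mouse Ensembl genes, so the values below are those of mouse gene rows. The labels used here give no age, sex or untreated group on a normal diet, and the series description divides 6 animals between the groups, which matches 1 library per animal. All comparisons are of HTG with HFD.

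Hepatocytes acquire and keep their character through a small network of transcription factors that bind the promoters and enhancers of one another and of the genes for plasma proteins, gluconeogenesis, bile acids and lipid handling. FOXA1, FOXA2 and FOXA3 are forkhead proteins, and FOXA1 and FOXA2 are known as pioneer factors because they open compacted liver enhancers. C/EBPα (Cebpa) and C/EBPβ (Cebpb) are basic leucine zipper proteins. C/EBPα is associated with the quiescent, metabolically active hepatocyte, and C/EBPβ is induced in the acute phase response, in fasting and in regeneration. HNF6 (Onecut1) and its relative OC-2 (Onecut2) are cut-homeodomain proteins of liver and bile duct development. PROX1 is a prospero homeodomain protein of hepatocytes and of lymphatic endothelium that acts as a co-repressor of nuclear receptors.

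Of the 8 factors, 3 were higher in the HTG group at an unadjusted p under 0.05: Onecut1 (3.23-fold), Foxa2 (1.88-fold) and Foxa1 (1.65-fold). The other 5 did not pass that threshold, and none was lower at it. This is 37.5% of the factors, where 24.7% of the 18455 genes tested had an unadjusted p under 0.05, 12.3% with the HTG group higher and 12.4% with it lower. The fitted log2 fold change was above 0 for 6 of the 8 factors and for 51.6% of all genes tested. None of the 8 had an adjusted p under 0.05 in edgeR's quasi-likelihood test (Benjamini-Hochberg adjustment over all genes tested), as was true of nearly all genes, since 0.0108% of those tested (2 genes) did. Foxa1 and Foxa2 were among the 10.8% of genes with an adjusted p under 0.1. All 8 factors passed the expression filter.

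The libraries held between 50648778 and 90563477 estimated counts. One sequenced fragment was worth about 4 counts, so this is between 12662194 and 22640869 fragments. HTG library 3 was the smallest. Mitochondrial rows held 4.97% to 6.45% of the counts in the HFD libraries and 9.31% to 15.2% in the HTG libraries. With those rows left out of the scaling, Onecut1, Foxa1 and Foxa2 still had an unadjusted p under 0.05. Hepatocyte markers were abundant in every library, with 8 of them, among them Alb, Ttr and Apob, summing to between 40530 and 54121 FPKM (fragments scaled by transcript length and library size). No library repeated another.

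The 8 factors spanned a wide range of levels per transcript length. Cebpa was the most abundant, with 108 ± 31.8 FPKM (SD, n = 3) in the HFD group, followed by Foxa3 with 30.9 ± 9.82. Prox1 (12.1 ± 1.73) and Foxa2 (10.2 ± 1.20) came next, and their HFD ranges overlapped. Foxa1 (3.70 ± 0.601), Onecut2 (3.57 ± 0.743), Cebpb (2.82 ± 1.10) and Onecut1 (1.16 ± 0.585) formed the lower end, where each overlapped its neighbour in the order. In the HTG group the order was the same except that Foxa2 (18.9 ± 9.15 FPKM) stood above Prox1 (14.6 ± 1.76), again with overlapping ranges. Cebpa stayed clear of Foxa3 in all 6 libraries.

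**Figure D1:**
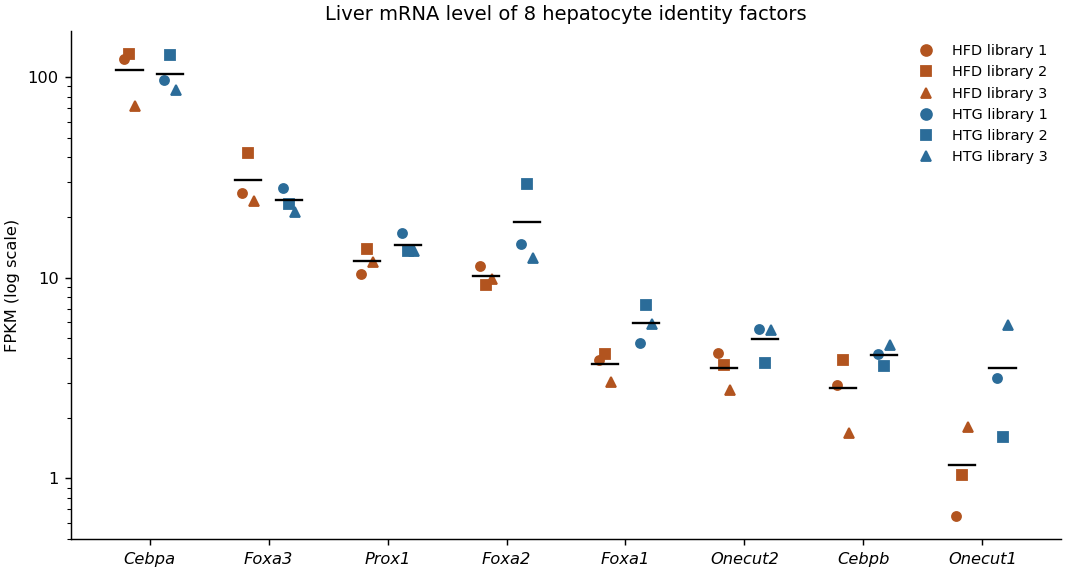
FPKM on a log axis for the 8 factors in each of the 6 libraries, ordered by the HFD mean; brown marks HFD libraries, blue marks HTG libraries, and black bars are group means. Only Foxa1 and Foxa2 have all 3 HTG libraries above all 3 HFD libraries, and Cebpa lies above the other factors throughout.

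Onecut1 (ENSMUSG00000043013, chromosome 9, 74769203 to 74799063, coordinates as the table lists them, with no build named) encodes HNF6, an activator of liver and biliary genes that also takes part in the response to growth hormone. It had 181, 317 and 535 counts in HFD libraries 1, 2 and 3 and 1093, 643 and 1290 counts in HTG libraries 1, 2 and 3. In FPKM these were 0.65, 1.04 and 1.80 across the HFD libraries against 3.18, 1.61 and 5.82 across the HTG libraries. HTG library 2 thus lay below HFD library 3, and the groups overlapped whether scaled for length or for depth alone. The log2 fold change was 1.69 (standard error 0.54, unadjusted p = 0.0129, adjusted p = 0.107, edgeR's quasi-likelihood test), with a 95% interval from 0.46 to 2.92. HTG library 3 carried much of this value: without it the log2 fold change was 1.07 and the unadjusted p was 0.0588 (edgeR's quasi-likelihood test). Onecut1 was also drawn by the study in a heatmap of changed genes chosen on these libraries, so its direction is not independent evidence.

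A second row covers the same ground. The lncRNA gene Gm20649 spans 29556 bases of Onecut1 on the same strand, and it was listed with 137 counts in HFD library 1 and 0 counts in the other 5 libraries. HFD library 1 was also the library with the fewest Onecut1 counts. With both rows added, the counts were 318, 317 and 535 in the HFD libraries and were unaltered in the HTG libraries. The log2 fold change of the sum was 1.51 (standard error 0.47, unadjusted p = 0.012, adjusted p = 0.104, edgeR's quasi-likelihood test). This sum was added after the values were seen.

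Onecut2 (ENSMUSG00000045991, chromosome 18) encodes OC-2, which shares DNA binding sites with HNF6. Its counts were 4677, 4417 and 3247 across the HFD libraries against 7513, 5926 and 4780 across the HTG libraries. Its FPKM values were 4.24, 3.69 and 2.77 against 5.54, 3.77 and 5.47, so HTG library 2 lay between HFD libraries 1 and 2. The fit gave a log2 fold change of 0.52 (standard error 0.26, unadjusted p = 0.0726, adjusted p = 0.248, edgeR's quasi-likelihood test; 95% interval -0.06 to 1.11). Without HTG library 2 it was 0.72 and the unadjusted p was 0.0163 (edgeR's quasi-likelihood test). HTG library 2 was the lowest of the HTG libraries for both Onecut genes. Their summed level was 4.89, 4.73 and 4.57 FPKM across the HFD libraries against 8.72, 5.38 and 11.3 FPKM across the HTG libraries. The sums did not overlap in FPKM as deposited, but each gene alone overlapped, both in FPKM and scaled for depth. The gap was narrow, between HTG library 2 (5.38) and HFD library 1 (4.89), whose sum leaves out its Gm20649 counts. Scaled for depth, Onecut2 was 60.6 CPM in HTG library 2 and 68.7 CPM in HFD library 1. Onecut1 was 6.58 and 2.66 CPM in these libraries, so the summed CPM overlapped between groups. In FPKM, 13.4% of all genes tested had every HTG library above every HFD library. Onecut1 made up 13.3%, 21.99% and 39.4% of the summed FPKM under HFD against 36.5%, 29.9% and 51.5% under HTG, and these shares overlapped.

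Foxa2 (ENSMUSG00000037025, chromosome 2, 147884797 to 147888889) encodes a pioneer factor that also takes part in the fasting response. Its counts were 1853, 1603 and 1688 across the HFD libraries against 2914, 6740 and 1610 across the HTG libraries. In FPKM these were 11.5, 9.16 and 9.84 against 14.7, 29.4 and 12.6. Every HTG library was above every HFD library after scaling for depth, and HTG library 2 stood far above the other 2. The log2 fold change was 0.91 (standard error 0.27, unadjusted p = 0.00924, adjusted p = 0.0948, edgeR's quasi-likelihood test; 95% interval 0.29 to 1.53). Without HTG library 2 it was 0.53, with an unadjusted p of 0.0191 (edgeR's quasi-likelihood test).

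Foxa1 (ENSMUSG00000035451, chromosome 12, 57587414 to 57593702), the other pioneer factor of the family, had 876, 1029 and 730 counts across the HFD libraries against 1314, 2351 and 1053 across the HTG libraries. Its FPKM values were 3.88, 4.19 and 3.03 against 4.73, 7.30 and 5.88, without overlap. A log2 fold change of 0.72 was fitted (standard error 0.22, unadjusted p = 0.00971, adjusted p = 0.0963, edgeR's quasi-likelihood test; 95% interval 0.23 to 1.22). No single library decided this call, as the unadjusted p stayed at or under 0.0391 in the 15 alternative fits. Foxa1 and Foxa2 were the 2 factors whose scaled counts (CPM, counts scaled to the normalised library size) did not overlap between groups, 25% of the 8 factors, where 32.1% of all genes tested did not overlap, 16.5% with every HTG library above every HFD library and 15.5% with every HTG library below. In FPKM the same 2 factors did not overlap, where 30.6% of all genes tested did not and 13.4% had the HTG libraries above.

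Foxa3 (ENSMUSG00000040891, chromosome 7, 18747209 to 18757463) is the most abundant family member of the adult liver. It had 3663, 6329 and 3537 counts across the HFD libraries against 4792, 4621 and 2340 across the HTG libraries. Its FPKM values were 26.5, 42.1 and 24.0 against 28.2, 23.4 and 21.3, so the groups overlapped and HFD library 2 was the highest of all. Its fitted log2 fold change was -0.32 (standard error 0.27, unadjusted p = 0.270, adjusted p = 0.498, edgeR's quasi-likelihood test; 95% interval -0.94 to 0.30). Without HFD library 2 the value was 0.04.

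**Figure D2:**
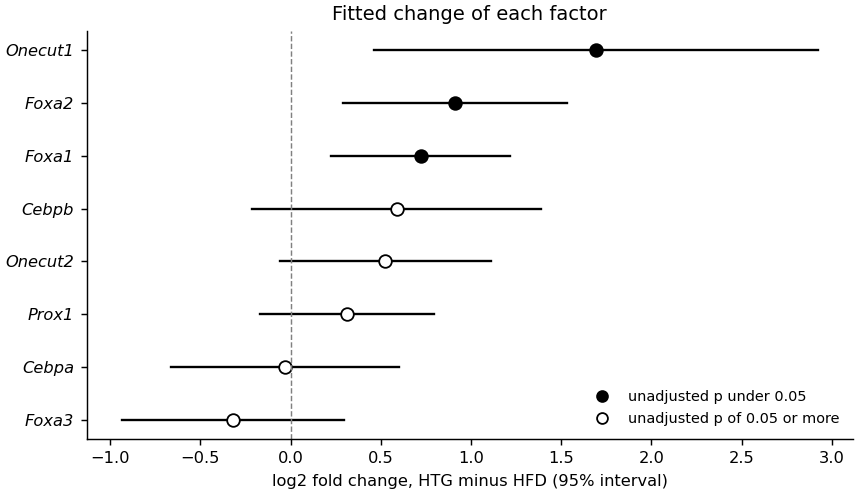
Fitted log2 fold change of each factor (HTG minus HFD, points) with its 95% interval (lines) from edgeR's quasi-likelihood fit; filled points have an unadjusted p under 0.05. Onecut1, Foxa2 and Foxa1 are filled, and the interval of Onecut1, from 0.46 to 2.92, is the widest of the 8.

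The make-up of the Foxa family was compared by ratios within each library, which do not depend on scaling between libraries. Foxa2 was at 0.341 of the Foxa3 level in the HFD group and at 0.730 in the HTG group (geometric means of FPKM ratios, with 0.1 added to each FPKM). The log2 ratio was -1.20, -2.19 and -1.28 across the HFD libraries against -0.93, 0.33 and -0.75 across the HTG libraries, so every HTG library was above every HFD library. HTG library 2 was the sole library in which Foxa2 exceeded Foxa3. The groups differed by 1.10 on the log2 scale, at the smallest p that 3 against 3 libraries allow (exact two-sided permutation test, p = 0.1, adjusted p = 0.25 over the 5 ratios computed). Without HTG library 2 the difference was 0.71. The Foxa1 to Foxa3 log2 ratio also did not overlap, with means of -2.99 ± 0.28 and -2.02 ± 0.47 (SD, n = 3 per group; difference 0.97, exact permutation p = 0.1, adjusted p = 0.25). Foxa1 and Foxa2 kept overlapping ratios to each other, which differed by -0.13 (exact permutation p = 0.8) and by 0.04 and 0.09 without HFD library 2 and HTG library 2.

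Foxa3 supplied 68.1% ± 6.85 of the summed Foxa FPKM under HFD and 50.6% ± 10.4 under HTG (SD, n = 3 per group). Foxa2 accounted for 23.6% ± 6.11 and 37.2% ± 10.2, and Foxa1 for 8.35% ± 0.864 and 12.3% ± 2.42 (SD, n = 3 per group). The summed level itself overlapped between groups, from 36.9 to 55.5 FPKM in the HFD libraries and from 39.8 to 60.2 FPKM in the HTG libraries.

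**Figure D3:**
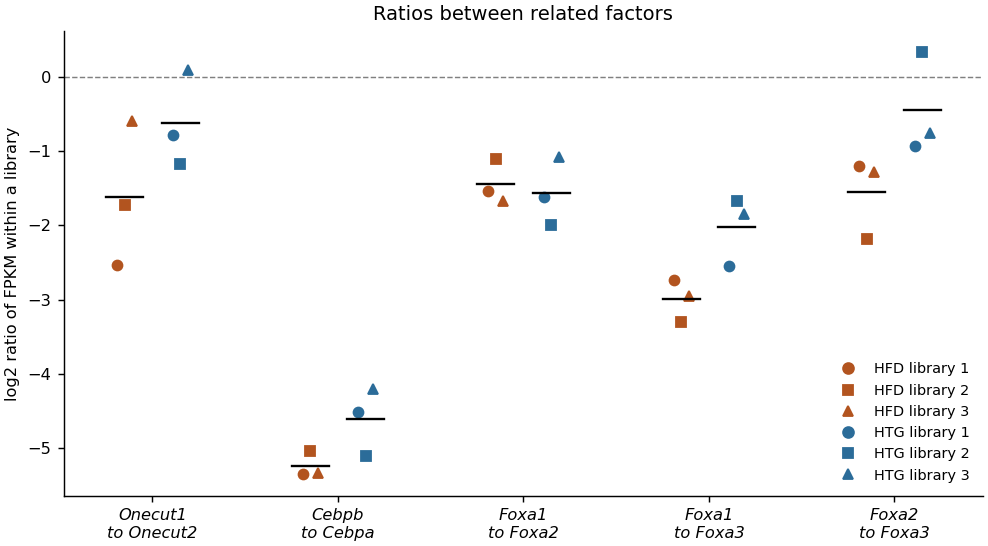
Log2 ratio of FPKM between related factors within each library (0.1 added to each FPKM); brown marks HFD libraries, blue marks HTG libraries, and black bars are group means. The Foxa1 to Foxa3 and Foxa2 to Foxa3 ratios of the HTG libraries sit above those of the HFD libraries, and the other 3 ratios overlap.

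Cebpa (ENSMUSG00000034957, chromosome 7, 34818718 to 34821353) is a gene without introns whose product activates albumin, gluconeogenic and urea cycle genes. It had 21965, 25295 and 13653 counts across the HFD libraries against 21406, 32785 and 12292 across the HTG libraries. The FPKM values were 123, 130 and 71.6 against 97.2, 129 and 86.6, with HTG values inside the HFD range. The fit put its log2 fold change at -0.03 (standard error 0.28, unadjusted p = 0.912, edgeR's quasi-likelihood test), and its 95% interval ran from -0.66 to 0.60, which leaves room for moderate changes either way. HFD library 3 had the lowest level of the 6 libraries.

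Cebpb (ENSMUSG00000056501, chromosome 2, 167530835 to 167532338), the inducible C/EBP gene, had 297, 431 and 183 counts across the HFD libraries against 523, 531 and 374 across the HTG libraries. Its FPKM values were 2.91, 3.88 and 1.68 against 4.16, 3.65 and 4.61, so HTG library 2 lay under HFD library 2. This gave a log2 fold change of 0.59 (standard error 0.35, unadjusted p = 0.129, adjusted p = 0.337, edgeR's quasi-likelihood test; 95% interval -0.21 to 1.39). Without HFD library 2 it was 0.95 and the unadjusted p was 0.0222 (edgeR's quasi-likelihood test). Cebpb stood at 0.0265 of the Cebpa level in the HFD group and at 0.0411 in the HTG group (geometric means of FPKM ratios), and this ratio overlapped between groups (log2 difference 0.63, exact two-sided permutation test, p = 0.2, adjusted p = 0.333).

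Prox1 (ENSMUSG00000010175, chromosome 1, 189850232 to 189902911) had 5948, 8599 and 7263 counts across the HFD libraries against 11681, 11081 and 6140 across the HTG libraries. Its FPKM values were 10.4, 13.9 and 12.0 against 16.7, 13.7 and 13.6, with HFD library 2 above HTG libraries 2 and 3. Prox1 had a fitted log2 fold change of 0.31 (standard error 0.21, unadjusted p = 0.174, adjusted p = 0.395, edgeR's quasi-likelihood test; 95% interval -0.17 to 0.80). Its standard error was the smallest of the 8.

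Several factors lie beside long non-coding RNA (lncRNA) genes, and 12 rows of the table overlapped a factor or lay within 10 kb of one. The lncRNA gene 9030622O22Rik begins 2621 bases beyond the 3′ end of Foxa2 on the same strand. It had 582, 737 and 853 counts across the HFD libraries against 1861, 3432 and 1027 across the HTG libraries. Scaled for depth it was 10.5 ± 1.74 CPM in the HFD group and 27.0 ± 7.11 CPM in the HTG group (SD, n = 3 per group), without overlap. The fitted log2 difference was 1.36 (standard error 0.23, unadjusted p = 3.04e-04, adjusted p = 0.0538, edgeR's quasi-likelihood test). HTG library 2 was the highest library for both Foxa2 and this lncRNA.

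Prox1os, which overlaps the first 431 bases of Prox1 on the opposite strand, was 4.71 ± 0.642 CPM in the HFD group and 7.25 ± 0.475 CPM in the HTG group (SD, n = 3 per group), and the fitted log2 difference was 0.62 (standard error 0.22, unadjusted p = 0.0197, adjusted p = 0.127, edgeR's quasi-likelihood test). Gm45091 overlaps 313 bases of Cebpa on the opposite strand and had 32, 43 and 37 counts across the HFD libraries against 58, 174 and 48 across the HTG libraries, a log2 fold change of 1.12 (standard error 0.47, unadjusted p = 0.0409). Without HTG library 2, its log2 fold change was 0.70. Peds1, a protein-coding gene that overlaps 908 bases of Cebpb on the opposite strand, was lower, with 23.6 ± 3.72 CPM in the HFD group and 16.0 ± 1.68 CPM in the HTG group (SD, n = 3 per group; log2 fold change -0.56, standard error 0.18, unadjusted p = 0.0129, edgeR's quasi-likelihood test). The call of Prox1os was lost without HFD library 3 (0.52), and also without HTG library 1 (0.56) or 2 (0.59), and that of Gm45091 without any library except HTG library 1. The paper's methods describe libraries with a dUTP-marked second strand, but whether strand was used in counting is not given in the sources used here. Without it, reads of rows that overlap on opposite strands could not be told apart. The other 8 neighbouring rows did not pass the unadjusted threshold or were not tested. Over all genes tested, 24.7% passed that threshold.

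**Figure D4:**
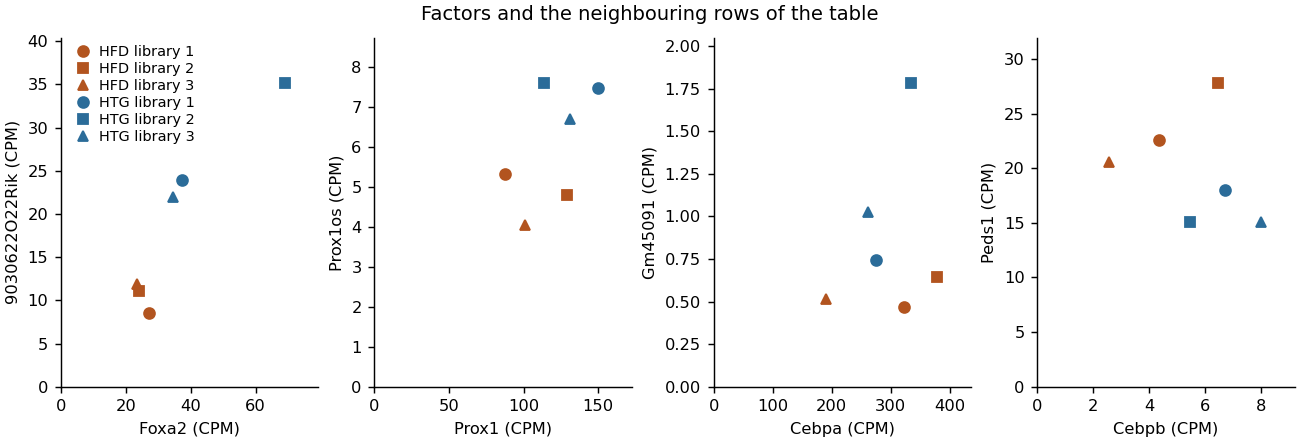
CPM of 4 factors (horizontal axes) against CPM of the neighbouring row with an unadjusted p under 0.05 (vertical axes) in the 6 libraries; brown marks HFD libraries and blue marks HTG libraries. For Foxa2 and 9030622O22Rik the HTG libraries lie up and to the right of the HFD libraries, while for Cebpb and Peds1 they lie lower on the vertical axis.

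The genes whose pattern over the 6 libraries was closest to each of the 3 higher factors were picked by the root mean square difference of log2 CPM after centring each gene on its mean. The nearest of 18056 named genes to Foxa1 was Mbd6, which encodes a methyl-CpG binding domain protein, at 0.0422. It had 4010, 4493 and 3510 counts across the HFD libraries against 6093, 10930 and 4754 across the HTG libraries. Gm21781 (0.0631) and Rbak (0.0633) followed. The nearest to Foxa2 were Slc25a38, a mitochondrial glycine carrier, at 0.0986 (log2 fold change 0.80, and 0.52 without HTG library 2), and the low-count rows Gm37144 (0.106) and Gm8129 (0.107). Onecut1 had no close match, since its nearest genes, Gm45086, Gm11342 and Cdkl4, were at 0.383 to 0.392 and had at most 54 counts in any library. Among the factors themselves, Foxa1 was the nearest of the other 7 to Foxa2, in place 845, and Onecut2 was the nearest to Onecut1, in place 1626. These are descriptions of 6 libraries of unequal depth.

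Relatives of the factors were measured in the same libraries. Of 6 listed, Onecut3 had no row in the table, and the other 5 (Cebpd, Cebpe, Cebpg, Ddit3 and Prox2) were tested, with 0 passing the unadjusted threshold. Over all genes tested, 24.7% (4563 genes) passed it. Without HFD library 1, 2 of the 5 were higher at it, and 4322 of all genes passed it in either direction. With all 6 libraries, the median log2 fold change of the 5 relatives was 0.34, against 0.03 for all genes tested and 0.56 for the 8 factors.

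A list of 14 other liver transcription factors had 1 gene higher, 2 lower and 11 not called, with a median log2 fold change of -0.08. Among all genes tested, 24.7% were called, 12.3% higher and 12.4% lower. Nr0b2, which encodes the orphan receptor SHP, a co-repressor in bile acid feedback, had 1754, 1533 and 1445 counts across the HFD libraries against 3136, 4605 and 2028 across the HTG libraries. Fitted, this was a log2 fold change of 0.92 (standard error 0.16, adjusted p = 0.055, edgeR's quasi-likelihood test), without overlap in CPM. Rxra, the common partner of many nuclear receptors, was lower, with 25980, 28644 and 27282 counts against 21426, 20641 and 10853 (log2 fold change -0.73, standard error 0.20, adjusted p = 0.0785, edgeR's quasi-likelihood test). Ppara, the fatty acid sensing receptor, had a log2 fold change of -0.80 (standard error 0.33, unadjusted p = 0.0392, edgeR's quasi-likelihood test). Its call was lost without HFD library 2 or 3 or HTG library 1 or 3, with values from -0.80 to -0.45. Hnf4a, the nuclear receptor at the centre of the hepatocyte network, had 30669, 72161 and 32623 counts across the HFD libraries against 38900, 31168 and 18458 across the HTG libraries, and HFD library 2 stood apart (log2 fold change -0.71, unadjusted p = 0.0931, edgeR's quasi-likelihood test).

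Genes that these factors are known to bind and activate were listed by factor family. Of 8 targets of the C/EBP proteins, 1 was higher and 3 were lower at the unadjusted threshold, and their median log2 fold change was -0.47. The shares over all genes tested were 12.3% higher and 12.4% lower. Cps1, the first enzyme of the urea cycle, had 139594, 147561 and 286635 counts across the HFD libraries against 71764, 82601 and 43218 across the HTG libraries (log2 fold change -1.62, standard error 0.30, adjusted p = 0.0568, edgeR's quasi-likelihood test). Hamp, which encodes the iron hormone hepcidin, had 7726, 33917 and 1582 counts against 112167, 85219 and 28113 (log2 fold change 2.18, standard error 0.92, unadjusted p = 0.0446, edgeR's quasi-likelihood test). G6pc, the last enzyme of glucose release, had a log2 fold change of -1.84 (standard error 0.72, unadjusted p = 0.0326) and Gys2, the liver glycogen synthase, one of -0.77 (standard error 0.33, unadjusted p = 0.0445, both from edgeR's quasi-likelihood test). G6pc is in all 3 target lists described here. Alb (-0.28) and Pck1 (-0.67), which are also in the FOXA list, did not pass the threshold.

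Of 9 targets of the FOXA proteins, 0 were higher and 3 were lower at the unadjusted threshold, namely Tat, Cpt1a and G6pc, and the median log2 fold change was -0.67. Over all genes tested, 12.3% were higher and 12.4% were lower at that threshold. Tat, an enzyme of tyrosine breakdown and a classical FOXA target, had 101172, 136777 and 137738 counts across the HFD libraries against 62846, 36408 and 47370 across the HTG libraries (log2 fold change -1.32, standard error 0.37, adjusted p = 0.0839, edgeR's quasi-likelihood test). Cpt1a, the entry enzyme of mitochondrial fatty acid oxidation, had a log2 fold change of -1.19 (standard error 0.29, adjusted p = 0.0654, edgeR's quasi-likelihood test). Igfbp1, which encodes a binding protein of insulin-like growth factors, did not overlap in CPM and had a log2 fold change of -1.74 (standard error 0.85, unadjusted p = 0.0727, edgeR's quasi-likelihood test). Ttr, which encodes transthyretin, differed by 0.06 on the log2 scale. Of 7 targets of HNF6, 0 were higher and 2 were lower, G6pc and Slc2a2, the latter with a log2 fold change of -0.96 (standard error 0.38, unadjusted p = 0.0354, edgeR's quasi-likelihood test). Of 4 partners of PROX1 (Hnf4a, Nr5a2, Hdac3 and Esrra), 0 passed the unadjusted threshold.

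Single libraries weighed on the calls of 4 of these targets. Without HTG library 3, G6pc (-1.65), Gys2 (-0.60) and Slc2a2 (-0.80) no longer had an unadjusted p under 0.05. G6pc also lost it without HFD library 2 (-1.32), HFD library 3 (-1.80) or HTG library 2 (-1.41), Gys2 without HFD library 1 (-0.82), HFD library 2 (-0.50) or HTG library 1 (-0.67), and Slc2a2 without HFD library 1 (-1.01), HFD library 3 (-0.59) or HTG library 1 (-0.84). Hamp lost it without HFD library 1 (1.87), and also without HTG library 1 (1.75) or 2 (2.25). The values of G6pc and Hamp were farthest from 0 without HTG library 1 (-2.80) and without HFD library 2 (3.84). The C/EBP target list had 2 genes called in place of 4 without HFD library 1 or 2 or HTG library 1 or 3. The HNF6 target list had 1 lower gene without HFD library 2 or HTG library 2, 1 higher gene and 0 lower without HFD library 3, 1 higher and 1 lower without HFD library 1, and 0 called without HTG library 3. Of the PROX1 partners, 1 was lower without HFD library 3. Cps1, Tat, Nr0b2 and Rxra had an unadjusted p under 0.05 in all 15 alternative fits.

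**Figure D5:**
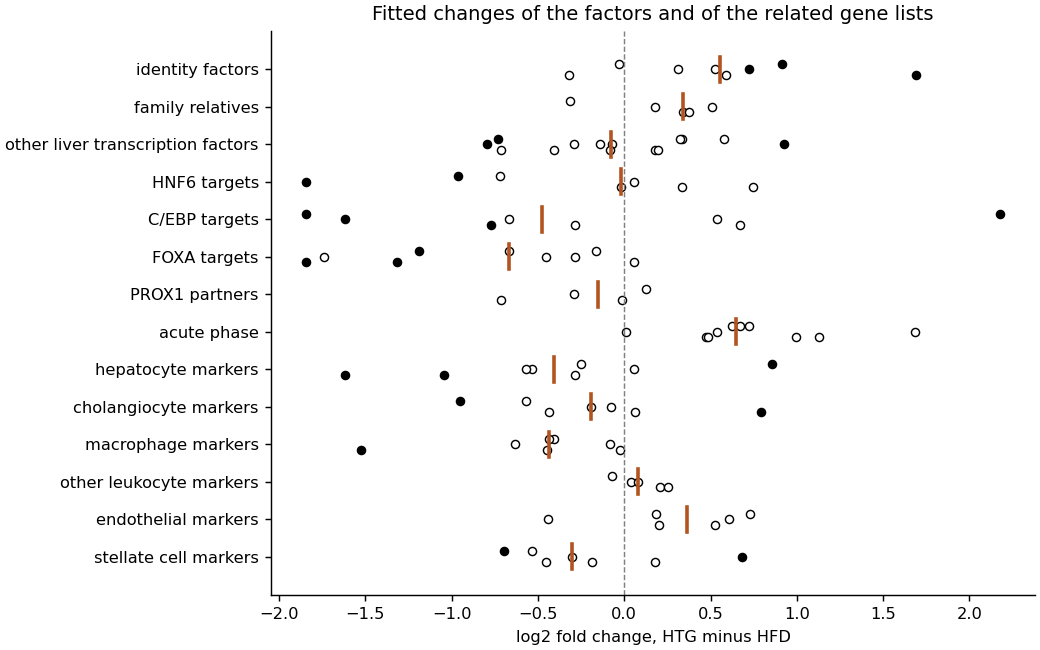
Fitted log2 fold changes (HTG minus HFD) of the 8 identity factors and of the genes tested in each related list; filled points have an unadjusted p under 0.05 and brown bars are medians. The identity factors have a median of 0.56, while the C/EBP and FOXA target lists, which share Alb, Pck1 and G6pc, have medians of -0.47 and -0.67.

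C/EBPβ takes part in the acute phase response, and 10 acute phase genes were therefore listed. None passed the unadjusted threshold, and all 10 had a fitted value above 0, with a median of 0.65. Over all genes tested, 24.7% passed that threshold and 51.6% had a fitted value above 0. HTG library 2 had the fewest counts of Saa1 (16785) and Saa2 (10379) among all libraries, and HTG library 3 the most (417451 and 658608). Without HTG library 2, 9 of the 10 were higher at an unadjusted p under 0.05, and without HTG library 3 the median was -0.14. Over all genes, 3086 had such a p in either direction without HTG library 2, in place of 4563 with all 6 libraries. In FPKM, Cebpb was highest in HTG library 3 and, among the HTG libraries, lowest in HTG library 2. The likeness did not extend to the HFD libraries. Cebpb in HTG library 2 (3.65 FPKM) was above HFD libraries 1 (2.91) and 3 (1.68). Saa1 in HTG library 2 (70.0 FPKM) was far below the same HFD libraries (682 and 629). A link between Cebpb and these genes was not tested.

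The factors are shared by several liver cell types, since bile duct cells use Onecut1, Onecut2, Foxa1 and Foxa2, lymphatic endothelium uses Prox1 and leukocytes use Cebpa and Cebpb. In such bulk libraries, more cells of a type and more RNA per cell cannot be told apart. Of 8 hepatocyte markers, 1 was higher (Apoa2, log2 fold change 0.85) and 2 were lower (Apob, -1.05, and Cps1). For this and the other marker lists, the shares over all genes tested were 12.3% higher and 12.4% lower. The summed level of the 8 was 48098 to 54121 FPKM in the HFD libraries and 40530 to 43735 FPKM in the HTG libraries. These sums did not overlap, as was true in FPKM of 30.6% of all genes tested. Alb, which was not called (-0.28), was the largest part of the sum, with group means of 27296 FPKM (HFD) and 21774 FPKM (HTG). Of 7 bile duct markers, Sox9 was higher (0.79, unadjusted p = 0.00888) and Epcam lower (-0.95, unadjusted p = 0.0312, both from edgeR's quasi-likelihood test), while Krt19 (0.06) and Krt7 (-0.08) were not called. Their sum was 49.7 to 61.9 FPKM in the HFD libraries and 33.5 to 66.7 FPKM in the HTG libraries. Spp1, which was not called (-0.19), made up most of it in every library, so the sum says little about the other bile duct markers. Its level was 46.8 FPKM in HFD library 1, the lowest HFD sum, and 63.7 FPKM in HTG library 3, the highest HTG sum. The call of Epcam was lost without HFD library 1 (-0.99), HFD library 2 (-0.65), HTG library 2 (-0.84) or HTG library 3 (-0.86).

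Of 7 macrophage markers, 1 was lower (Adgre1, -1.53, adjusted p = 0.0538, edgeR's quasi-likelihood test) and 0 were higher, with sums of 106 to 289 FPKM in the HFD libraries and 105 to 215 FPKM in the HTG libraries. Of 6 other leukocyte markers, 5 were tested and 0 called, with sums of 51.1 to 74.9 against 32.1 to 88.9 FPKM. Of 8 endothelial markers, 6 were tested and 0 called, with sums of 8.26 to 23.8 against 14.3 to 27.4 FPKM. The lymphatic markers Pdpn and Ccl21a did not pass the expression filter, and Pdpn was listed at 0 in 2 HTG libraries. Of 7 stellate cell markers, Reln was lower (-0.70, unadjusted p = 0.00865) and Des higher (0.68, unadjusted p = 0.0254, both from edgeR's quasi-likelihood test), with sums of 19.98 to 32.5 against 17.8 to 26.8 FPKM. The call of Des was lost without HFD library 2 (0.53), HFD library 3 (0.65) or any HTG library. With 1 library left out, the number called was 1 to 3 for the macrophage list (3 without HFD library 2, 2 without HTG library 2), 0 to 2 for the endothelial list (2 without HFD library 1, 1 without HFD library 2 or HTG library 2 or 3), 1 for the leukocyte list without HTG library 2, and 1 in place of 2 for the stellate list without HFD library 3 or HTG library 2 or 3. The part of these cell types in the values of the 8 factors was not tested.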

How the data were processed

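The libraries were made from poly(A) liver RNA and sequenced in pairs. For every gene and library the authors deposited an FPKM value and an estimated count, given without decimals and not scaled between libraries. Per the labels, HISAT2, StringTie and SAMtools were used and the build was mRatBN7.2, without versions, although the rows are mouse Ensembl genes. The paper's methods describe dUTP marking of the second strand, and the labels name an NEBNext Ultra RNA kit. The annotation release, filters and use of strand in counting are not given in the sources used here. No reference sequence was used, since the supplied tables are of the rat.

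Expected counts were used as deposited whole numbers. A value of 4 occurred 6450 times, against 2549 times for 3 and 1757 times for 5, so 1 fragment was read as about 4 counts. The limit of an empty gene was 3 fragments, or 12 counts (0.123 to 0.256 CPM), for counting error only. Counts were compared by the quasi-likelihood test of edgeR 4.0.16 (R 4.3.3) after filterByExpr and TMM normalisation, two-sided, with the group as the only term, over 18455 of 32930 rows, and p-values were adjusted by Benjamini-Hochberg over all of them. Intervals of 95% used the fit's degrees of freedom. The series description counts 6 animals, but no label ties a library to an animal, so p-values measure the spread between these libraries, which may be technical. Ratios used FPKM plus 0.1 and exact permutation tests (scipy 1.17.1), for which 0.1 is the smallest p.

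Genes were named as follows: the 8 factors, rows within 10 kb of them, genes of 13 lists with an unadjusted p under 0.05, and the 3 nearest in pattern to each factor with such a p. Onecut3, Cebpd, Cebpe, Cebpg, Ddit3, Prox2, Hnf4a, Nr5a2, Hdac3, Esrra, Alb, Pck1, Igfbp1, Ttr, Saa1, Saa2, Krt19, Krt7, Spp1, Pdpn and Ccl21a were named outside this rule, after their values were seen. The factors and lists were chosen with earlier results of these data known. The scripts were tested on simulated counts. Alternatives were DESeq2 1.42.0, 2 other filters, 3 other scalings, counts divided by 4, limma 3.58.1 on log2(FPKM + 0.1), the replicate number as a block, and each library left out in turn, and for ratios 1 added to each FPKM or counts in place of FPKM. The sum of Onecut1 and Gm20649 was added after seeing the data.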

Additional observations from a re-analysis of the deposited data

How the results depend on the processing

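Of the 8 factors, 3 passed the unadjusted threshold in each fit that kept all 6 libraries, and between 2 and 4 did so with 1 library left out. Foxa1 and Foxa2 passed in all 15 alternatives and Onecut1 in 15 of 16, with log2 fold changes from 0.57 to 0.87, 0.53 to 1.10 and 1.07 to 2.11. DESeq2 gave Foxa2 and Onecut1 adjusted p-values of 0.0295 and 0.0117, and no other alternative put a factor under 0.05 (adjusted p-values from 0.0537 to 0.285 for Foxa1, 0.0295 to 0.235 for Foxa2 and 0.0117 to 0.295 for Onecut1). Values near 0 changed sign: Cebpa was 0.010 with upper-quartile scaling, 0.018 with the replicate block, and -0.28 to 0.18 with 1 library left out (above 0 without HFD library 1, HFD library 2 or HTG library 3), and Foxa3 was -0.49 to 0.035 (above 0 without HFD library 2). The number of all genes with an adjusted p under 0.05 was 2401 with DESeq2, 162 without a filter, 684 with at least 10 counts in every library, 822 with counts divided by 4, 878 with limma on FPKM, 0 with the replicate block, and 0 to 653 with 1 library left out, and the cause was not tested. The listed genes with an unadjusted p under 0.05 numbered 17, and 13 to 26 with 1 library left out. Over all genes tested the number was 4563 (24.7%), and 3086 to 4958 with 1 library left out. With 1 library left out, the differences in log2 ratio ranged from 0.54 to 1.51 (Onecut1 to Onecut2), 0.43 to 0.88 (Cebpb to Cebpa), -0.37 to 0.09 (Foxa1 to Foxa2), 0.80 to 1.24 (Foxa1 to Foxa3) and 0.71 to 1.34 (Foxa2 to Foxa3). Replicate numbers did not pair the libraries, as the deviations of same-numbered libraries correlated at -0.0779, -0.0731 and 0.101. The block left 3 factors called and gave 3867 genes with an unadjusted p under 0.05 in place of 4563. By design it could not alter the differences of the 5 ratios, as each group holds every replicate number. It ended the calls of G6pc (edgeR's quasi-likelihood test, unadjusted p = 0.0816), Slc2a2 (0.0725), Gm45091 (0.0658) and Epcam (0.0512), so 0 HNF6 targets were called in place of 2. The 3 other scalings moved the median of all genes by at most 0.0354. With limma on FPKM, over the genes kept for it, the median was shifted by -0.093. The lowest library, HTG library 3, held 12662194 fragments.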
